A study of Mus musculus with 6 samples.

Results

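The 8 genes described here encode the FOS proteins (Fos, Fosb, Fosl1, Fosl2), the JUN proteins (Jun, Junb, Jund) and ATF3 of the mouse. They were chosen by name, and each was found as 1 row of the count table by its Ensembl identifier in the GENCODE M21 annotation, so they are 8 of the 54532 genes counted. Poly-A RNA of cardiomyocyte (CM) nuclei was sequenced from hearts of ICR mice of both sexes. All mice received 1e+11 viral genomes of an AAV9 vector, whose cardiac troponin T promoter (cTnT) limits the transgene to CMs, at postnatal day 6, and hearts were taken at day 9, 3 days later. The vector carried GFP in the control group, YAP5SA in the second group and YAP6SA in the third. YAP5SA is a form of the Hippo pathway effector YAP in which serines that the LATS kinases phosphorylate are replaced by alanine, and YAP6SA carries a further serine-to-alanine change. Both batches held 1 library of every group, so n = 2 throughout, and the 6 libraries held 14552847 to 19615627 gene counts.

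AP-1 is a dimer of basic leucine zipper (bZIP) proteins. JUN proteins pair with each other or with a FOS protein, FOS proteins need a JUN partner, and the dimers bind the TGAGTCA motif known as the TRE. ATF3 is a related bZIP protein, induced by many stresses, that pairs with JUN proteins and often acts as a repressor. Fos, Fosb, Junb, Jun and Atf3 are immediate early genes: growth factors, stretch, injury or the dissection of a tissue switch them on within minutes through MAP kinases, SRF and CREB, with no need for new protein. Fosl1 and Fosl2 follow more slowly, and Jund is expressed steadily in many tissues. AP-1 proteins are also known to bind DNA next to TEAD, the DNA-binding partner of YAP.

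Because these genes respond to handling, the way the nuclei were made belongs beside every value. Fresh hearts were minced on ice and broken in a Dounce homogenizer in a detergent buffer, the nuclei were cleaned on a density gradient and cleared with beads, and CM nuclei were pulled down with an antibody to PCM-1, a centrosomal protein that marks the CM nucleus. The time that each heart spent in these steps is not given in the sources used here.

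The bases upstream of 4 of the genes are given with exact matches to short motifs marked. Each line gives 150 bases that end at the base before the RefSeq start of the gene, on the strand of the gene, in build GRCm38.p6, and the capitals mark matches to a short CRE (TGACG on either strand, the core of the CREB and ATF site) or to a TATA box (TATAAA on the strand of the gene).
Fos: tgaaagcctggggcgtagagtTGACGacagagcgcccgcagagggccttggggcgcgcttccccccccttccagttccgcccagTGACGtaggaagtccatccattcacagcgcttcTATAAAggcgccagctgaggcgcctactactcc
Junb: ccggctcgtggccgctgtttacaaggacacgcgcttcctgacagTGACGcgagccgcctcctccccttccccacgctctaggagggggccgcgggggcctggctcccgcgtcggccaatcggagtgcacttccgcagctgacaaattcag
Atf3: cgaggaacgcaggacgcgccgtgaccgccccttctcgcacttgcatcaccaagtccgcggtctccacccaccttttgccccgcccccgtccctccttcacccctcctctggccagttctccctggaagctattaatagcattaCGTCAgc
Jun: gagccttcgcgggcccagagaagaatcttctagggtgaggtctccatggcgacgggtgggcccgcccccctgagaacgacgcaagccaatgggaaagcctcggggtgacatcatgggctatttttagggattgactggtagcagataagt
The stretches lie at chr12:85473740-85473889 (Fos, plus strand), chr8:84978749-84978898 (Junb, minus strand), chr1:191183334-191183483 (Atf3, minus strand) and chr4:95052223-95052372 (Jun, minus strand). Fos has 2 short CREs, at positions -129 to -125 and -66 to -62 from the start, and a TATA box at -33 to -28. Junb has 1, at -106 to -102, and Atf3 has 1 on the other strand, at -7 to -3, where it is written CGTCA. Fosb, not printed, has 1 at -60 to -56. No short CRE was found in the 250 bases upstream of Jun, Jund or Fosl2, and RefSeq promoters matched 7 of the 8 genes, Fosl1 being the exception. For scale, a short CRE stood in 17.8% of 32851 RefSeq promoters searched over the same 250 bases, and a TATA box in 7.59%. The 7 windows held no TRE (TGAGTCA, 4.46% of promoters), no full CRE (TGACGTCA, 1.55%; it contains the short one), no MCAT element (GGAATG, the TEAD motif, 12.6%) and no CArG box, the SRF motif (1.47%), on either strand. A match is a run of letters, not a measured binding site. Only exact matches were sought, and the Jun stretch holds an unmarked tgacatca, which differs from the full CRE by 1 letter. Bases further upstream than 250 were not searched, so elements that lie there would be missed. RefSeq and GENCODE place some starts apart. The RefSeq start of Atf3 lies 34706 bases inside the longer GENCODE gene, and 7 of the 150 bases printed for Atf3 lie in GENCODE exons. Whether these 7 hold its short CRE was not read. The RefSeq start of Fosl2 lies 671 bases inside the GENCODE gene, so that the last 150 bases of the Fosl2 window lie in GENCODE exons. That of Jund lies 1210 bases upstream of the GENCODE gene.

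Over all exon bases, Jun and Junb were the 2 most abundant members in all 6 libraries, and Fosb and Fosl1 the least abundant. Levels of different genes are given as CPM, the count scaled to the size of each library (TMM factors 0.94 to 1.04), per kilobase of merged exons. In the GFP group Jun, the archetypal AP-1 subunit, stood highest at 30.7 CPM per kb in batch 1 and 27.3 in batch 2. It was followed by Junb, a JUN protein that often restrains growth, at 19.4 and 15.1, and by Jund, linked to restraint of hypertrophy in CMs, at 13.8 and 10.8. Fos, the rapid partner of JUN proteins, lay at 9.82 and 2.88 CPM per kb and Atf3 at 5.93 and 1.72. Fosl2, a slower FOS protein known for roles in fibrosis, lay at 2.73 and 2.88. In the GFP group the ranges of Jun, Junb and Jund did not overlap each other, while those of Fos, Atf3 and Fosl2 did. The GFP values of Fosl1 (0.180 and 0.0961) and Fosb (0.101 and 0.136) overlapped too and lay below all others. Jun stood first in all 4 GFP and YAP6SA libraries. Over all exon bases Junb stood first in both YAP5SA libraries, at 26.6 and 46.6 CPM per kb, beside 25.8 and 27.0 for Jun.

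**Figure D1:**
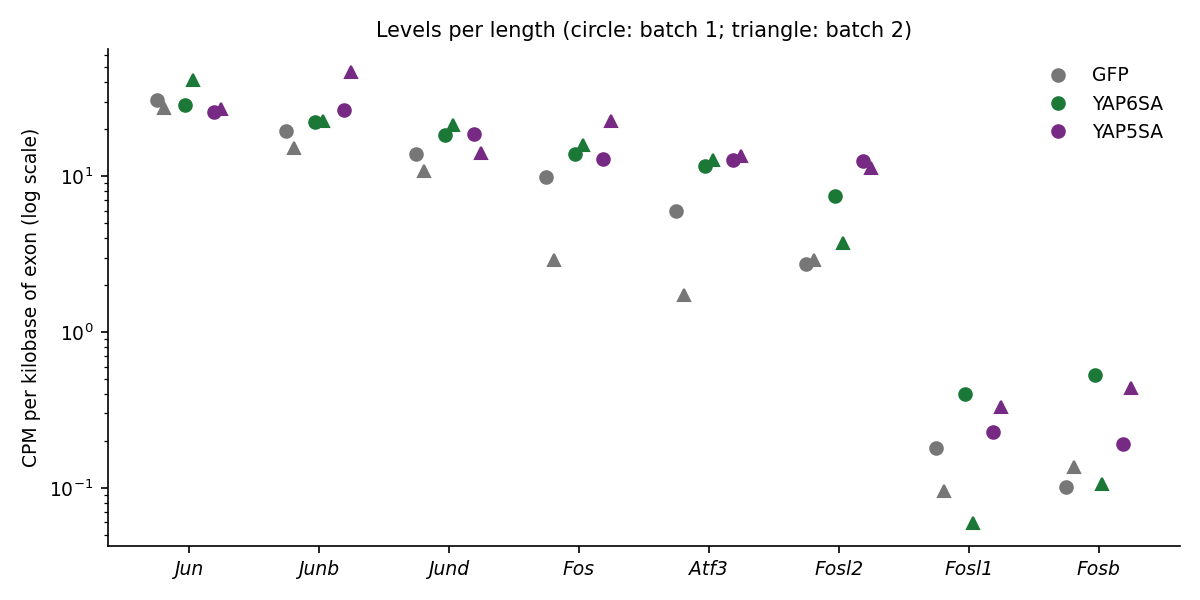
Level of each of the 8 genes in CPM per kilobase of exon on a log axis, 1 point per library, with GFP in grey, YAP6SA in green and YAP5SA in purple. Jun, Junb and Jund sit above 10 CPM per kb in all 6 libraries, Fos, Atf3 and Fosl2 are lowest in GFP, and Fosl1 and Fosb stay below 1.

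The place of Jund in that order depends on which exon bases could be counted. Reads that lay on exons of more than 1 gene were set aside as ambiguous, and 877 of the 1668 exon bases of Jund (52.6%) are shared with Gm11175 on the other strand, which itself had 0 counts in total. Dividing each whole count by the unshared bases alone assumes that no read on shared bases was counted, as when strand is ignored. On that assumption Jund came to 29.1 and 22.7 CPM per kb in the GFP libraries, beside 33.1 and 29.4 for Jun. In the YAP6SA libraries Jund came to 38.4 and 44.5, beside 30.9 and 44.3 for Jun. In the YAP5SA libraries Jund came to 39.0 and 29.6, beside 28.8 and 50.4 for Junb and 27.9 and 29.1 for Jun. On this measure Jund lay above Junb in 5 of 6 libraries, Junb standing higher in the second YAP5SA library, and Jund rather than Junb stood first in the first YAP5SA library. Of Fosl1, 57.2% of the exon bases are shared with Ccdc85b on the other strand. Whether the counting used strand is not given in the sources used here. If it did, reads of Jund on the shared bases were counted, and the order over all exon bases is the one that applies. For Jun (7.3% shared with Junos) and Junb (7.5% shared with Prdx2) the shared part was small. These overlaps are the same in every library.

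Summed over the 4 FOS genes the level was 12.8 and 5.99 CPM per kb in GFP, 22.3 and 19.8 in YAP6SA and 25.9 and 34.4 in YAP5SA, so both libraries of each YAP group lay above both GFP libraries. The 3 JUN genes summed to 63.9 and 53.1, 69.0 and 84.7, and 70.9 and 87.7 in the same order, again without overlap with GFP. The ratio of JUN to FOS level was 4.98 and 8.85 in GFP, 3.10 and 4.28 in YAP6SA and 2.74 and 2.55 in YAP5SA. The sums and ratios use all exon bases, shared ones included, so they depend on the length taken for Jund. They are a description and were not tested.

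The first comparison, YAP5SA against GFP, asks which members changed with the active YAP. Fosl2, Atf3, Fos and Junb were higher, by 4.20, 3.63, 2.89 and 2.08 fold, while Jun and Jund did not pass the test. The test was edgeR's quasi-likelihood test on the counts of all 6 libraries in 1 model of group and batch, with p adjusted over the 13323 genes tested (Benjamini-Hochberg, given as FDR, threshold 0.05). Of the 8 members 6 were tested, and those 6 exceeded the limit of the filter, a median log2 CPM of 1 in at least 1 group, in every group, so none entered through its high group alone. In this comparison 4 of 6 members were called higher and 0 lower, beside 12.8% of all tested genes called higher and 9.18% called lower. The median log2 fold change was 1.29 over the 6 members and 0.00 over all genes tested. Only Fosl2 kept its call when any single library was left out, and without the second GFP library it was the 1 member called, beside 4.2% of all genes called higher in that fit. Without the second YAP5SA library 2 members were called, beside 8.25% of all genes called higher.

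Fosl2 (ENSMUSG00000029135, chr5:32135801-32157842, plus strand, GRCm38) held 26.4 CPM in the first GFP library and 27.9 in the second. The YAP5SA libraries held 121 and 109 CPM, and the YAP6SA libraries 71.7 and 36.0. All 4 YAP libraries lay above both GFP libraries, both YAP5SA libraries above both YAP6SA libraries, and the 2 GFP libraries were close together. The group means were 27.2 ± 1.08 CPM with GFP, 53.8 ± 25.3 with YAP6SA and 115 ± 8.84 with YAP5SA (SD, n = 2). Against GFP the log2 fold change in YAP5SA was 2.07 (SE 0.24, edgeR FDR 6.8e-04), with 2.20 in batch 1 and 1.96 in batch 2. The rise was called in 13 of 13 other fits, with log2 fold changes of 1.78 to 2.42.

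Atf3 (ENSMUSG00000026628, chr1:191170296-191218039, minus strand) gave 12.8 and 3.71 CPM with GFP, 25.0 and 27.3 with YAP6SA, and 27.3 and 28.8 with YAP5SA. The 4 YAP libraries lay close together and above both GFP libraries, which themselves differed by 1.78 on the log2 scale, the second being the lower. The log2 fold change in YAP5SA was 1.86 (SE 0.40, edgeR FDR 0.0112), made up of 1.09 in batch 1 and 2.96 in batch 2. Without the second GFP library it was 1.08 with FDR 0.0611 and was no longer called, and without the first GFP library it was 2.98.

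Fos (ENSMUSG00000021250, chr12:85473890-85477273, plus strand) showed the same split of the GFP libraries, with 23.1 CPM in batch 1 and 6.77 in batch 2. The YAP6SA libraries held 32.7 and 37.5 CPM and the YAP5SA libraries 30.4 and 52.7. No YAP library fell below a GFP library, but the first GFP library was nearer to the first YAP5SA library than to the second GFP library. The log2 fold change in YAP5SA was 1.53 (SE 0.47, edgeR FDR 0.0437), with 0.40 in batch 1 and 2.96 in batch 2. The call was lost without the second GFP library (0.56, FDR 0.331), without the second YAP5SA library (0.81, FDR 0.138), with DESeq2 (1.56, adjusted p = 0.192) and in the fit without the replicate block (1.47, FDR 0.0611), and the value was 2.83 without the first GFP library and 2.29 without the first YAP5SA library.

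Junb (ENSMUSG00000052837, chr8:84974484-84978718, minus strand) held 44.7 and 34.6 CPM in the GFP libraries, 51.0 and 51.8 in those of YAP6SA and 61.2 and 107 in those of YAP5SA. The 3 groups did not overlap, and the second YAP5SA library stood well above the first. The log2 fold change in YAP5SA against GFP was 1.06 (SE 0.25, edgeR FDR 0.0145), with 0.45 in batch 1 and 1.63 in batch 2. The call was lost without the second GFP library (0.67, FDR 0.212) and without the second YAP5SA library (0.56, FDR 0.0547), and the value was 1.54 without the first YAP5SA library.

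Jun (ENSMUSG00000052684, chr4:95049034-95052222, minus strand) held 97.9 and 86.9 CPM in GFP and 82.4 and 86.1 in YAP5SA. The YAP5SA libraries lay just below GFP, with a log2 fold change of -0.14 and a 95% interval of -0.54 to 0.26 (edgeR FDR 0.617). Jund (ENSMUSG00000071076, chr8:70698949-70700616, plus strand) held 23.1 and 18.0 CPM in GFP and 30.8 and 23.4 in YAP5SA. Its log2 fold change was 0.40, with an interval of -0.08 to 0.88 (edgeR FDR 0.211). Neither gene was called in any of 13 other fits of this comparison. The 95% interval of Jund overlapped that of Fos (0.48 to 2.59), and differences between members were not tested.

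**Figure D2:**
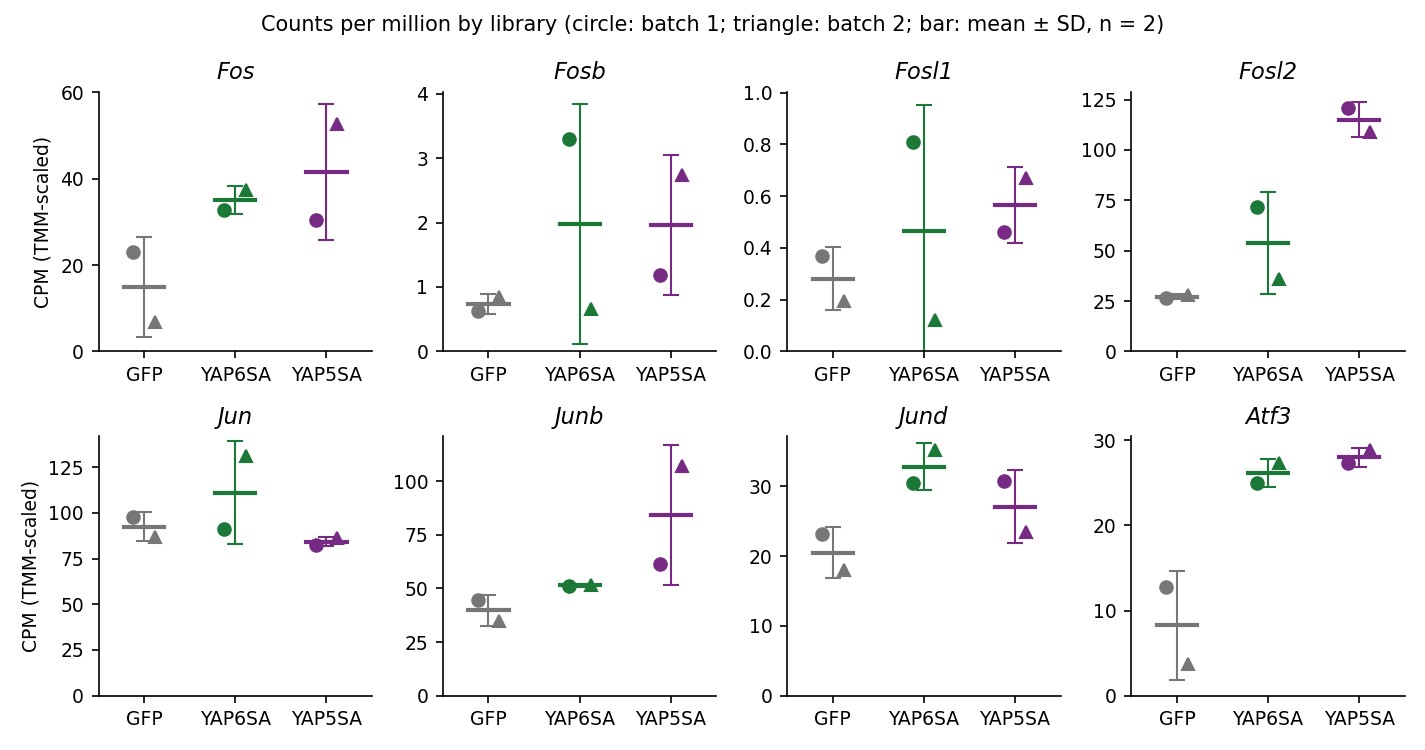
Level of each gene in TMM-scaled CPM, with 1 panel per gene, a linear axis from 0, circles for batch 1, triangles for batch 2, and bars for the mean and SD of the 2 libraries of a group (cut at 0 for Fosl1). Fosl2 rises from 27.2 CPM in GFP to 115 in YAP5SA with little spread in either group, while the second GFP library is the lowest point for Fos and Atf3.

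The second comparison, YAP6SA against GFP, asks the same of the second YAP variant. All 6 tested members had a log2 fold change above 0, with a median of 0.81 beside 0.00 over all genes, yet 0 of 6 were called by edgeR's quasi-likelihood test, beside 0.045% of all genes called higher and 0% lower. At an unadjusted p under 0.05, 4 of 6 members were higher, beside 3.86% of all genes. In 5 of 6 members both YAP6SA libraries exceeded both GFP libraries, beside 17.4% of all genes tested. The corresponding counts in YAP5SA were 5 of 6 higher, beside 31.2%, and 1 of 6 lower, beside 29.8%.

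Atf3 had the largest difference, a log2 fold change of 1.76 (SE 0.40, edgeR FDR 0.328), with 0.97 in batch 1 and 2.88 in batch 2. The value for Fos was 1.27 (SE 0.46, FDR 0.708), with 0.50 and 2.47 in the batches. Fosl2, the one gene of the 3 whose GFP libraries were alike, gave 0.93 (SE 0.24, FDR 0.437), with 1.44 in batch 1 and 0.36 in batch 2. Here the spread lay in the YAP6SA libraries instead.

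For Jund the log2 fold change was 0.69 (SE 0.22, edgeR FDR 0.611), from 30.4 and 35.2 CPM in YAP6SA, both above GFP, and the batches gave 0.40 and 0.97. For Junb it was 0.36 (FDR 0.899). Jun, at 91.2 and 131 CPM in YAP6SA, gave 0.25 (FDR 0.905), and its groups overlapped.

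The calls in this comparison changed with the fit. When only the 4 libraries of YAP6SA and GFP were fitted, Atf3 (1.81, edgeR FDR 3.7e-04), Fos (1.41, FDR 0.00386), Fosl2 (0.92, FDR 0.0059) and Jund (0.69, FDR 0.0424) were all called, beside 1.49% of all genes called higher. With no filter on low counts, Atf3, Fos and Fosl2 were called, beside 0.398% of all genes. The likelihood ratio test and DESeq2 called Atf3 alone among the members (FDR 0.00617 and 0.00352), beside 0.405% and 0.319% of all genes called higher. Without the second GFP library the changes were 0.98 for Atf3 (FDR 0.719), 0.36 for Fos (FDR 1) and 0.01 for Junb, and without the first they were 2.86 for Atf3 (FDR 0.00348) and 2.62 for Fos (FDR 0.00377).

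**Figure D3:**
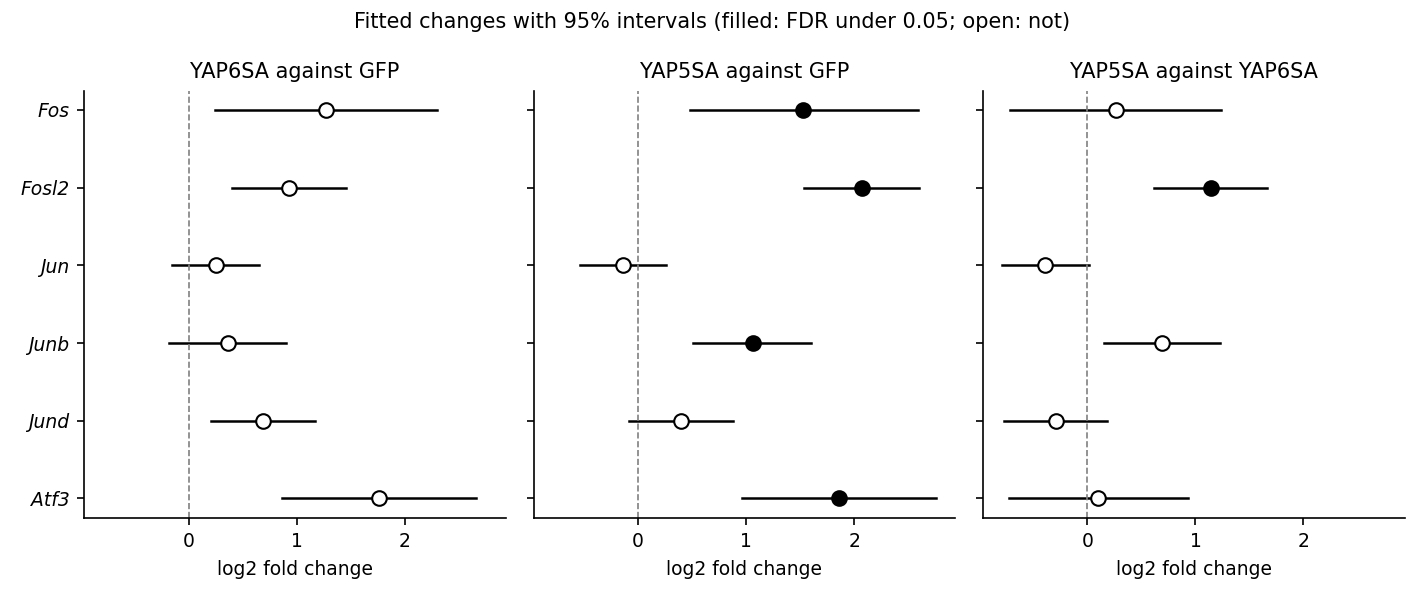
Fitted log2 fold change of the 6 tested members with the 95% interval, in 3 panels for the 3 comparisons; filled points have an FDR under 0.05. Filled points are Fos, Fosl2, Junb and Atf3 for YAP5SA against GFP and Fosl2 for YAP5SA against YAP6SA, and the YAP6SA panel has none although all 6 points lie above 0.

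The 2 variants were then compared directly. Of the 6 members, Fosl2 was called higher in YAP5SA than in YAP6SA and none was called lower, beside 9% of all genes called higher and 5.68% lower. The log2 difference for Fosl2 was 1.14 (SE 0.23, edgeR FDR 0.0113), with 0.76 in batch 1 and 1.59 in batch 2. Leaving out the second YAP6SA library reduced it to 0.70 (FDR 0.158), and no other of the 13 other fits lost the call. Junb gave 0.69 (SE 0.24, FDR 0.0831) and did not pass, and it was called in 5 of 13 other fits, among them the fit with no filter on low counts (FDR 0.00362) and the fit without the first YAP5SA library (1.15, FDR 6.6e-05).

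For Atf3 and Fos no difference between the variants was detected. The log2 difference for Atf3 was 0.10 with a 95% interval of -0.73 to 0.93 (edgeR FDR 0.886), and for Fos 0.26 with an interval of -0.72 to 1.24 (FDR 0.731). These intervals still admit a difference of nearly 2 fold in Atf3. Jun and Jund pointed the other way, at -0.39 (FDR 0.175) and -0.29 (FDR 0.39), and were not called.

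Fosb and Fosl1 were too low for the filter, and Fosb, an immediate early FOS protein, lay just under the limit. Fosb (ENSMUSG00000003545, chr7:19302696-19310051, minus strand) had 12 and 13 counts in GFP, 65 and 11 in YAP6SA and 18 and 49 in YAP5SA. Its highest YAP6SA library came from batch 1 and its highest YAP5SA library from batch 2. Fosl1 (ENSMUSG00000024912, chr19:5447547-5455946, plus strand), a FOS protein prominent in proliferating and invasive cells, had 7 and 3 counts in GFP, 16 and 2 in YAP6SA and 7 and 12 in YAP5SA. In the second GFP and second YAP6SA libraries it was not above the floor of 3 counts set for counting error. In a fit with no filter, Fosb gave 1.45 in YAP5SA against GFP (edgeR FDR 0.138) and 1.38 in YAP6SA (FDR 0.992), and was called in the fit without the first YAP5SA library alone (2.39, FDR 0.00845). A difference in Fosl1 was not detectable at this depth (FDR 0.85 in YAP5SA and 1 in YAP6SA).

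The GFP libraries bear on several of these results. Within GFP, batch 2 against batch 1 differed by -1.77 for Fos and -1.78 for Atf3 on the log2 scale, while the same difference was 0.19 and 0.13 in YAP6SA and 0.79 and 0.08 in YAP5SA. Over all groups the batch term called 0 of the 6 members and 0.203% of all genes. Of 28 other immediate early genes tested, 18 were lower in the second GFP library than in the first (64.3%, median log2 difference -0.17), beside 51% of all genes tested. Egr1, a zinc finger factor of the same class, was among them, at 26.9 and 10.4 CPM with GFP, and held 25.4 and 19.8 with YAP6SA, and 27.1 and 37.5 with YAP5SA. Nr4a1, an orphan nuclear receptor, was not, with 61.0 and 68.5, 263 and 222, and 192 and 117.

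**Figure D4:**
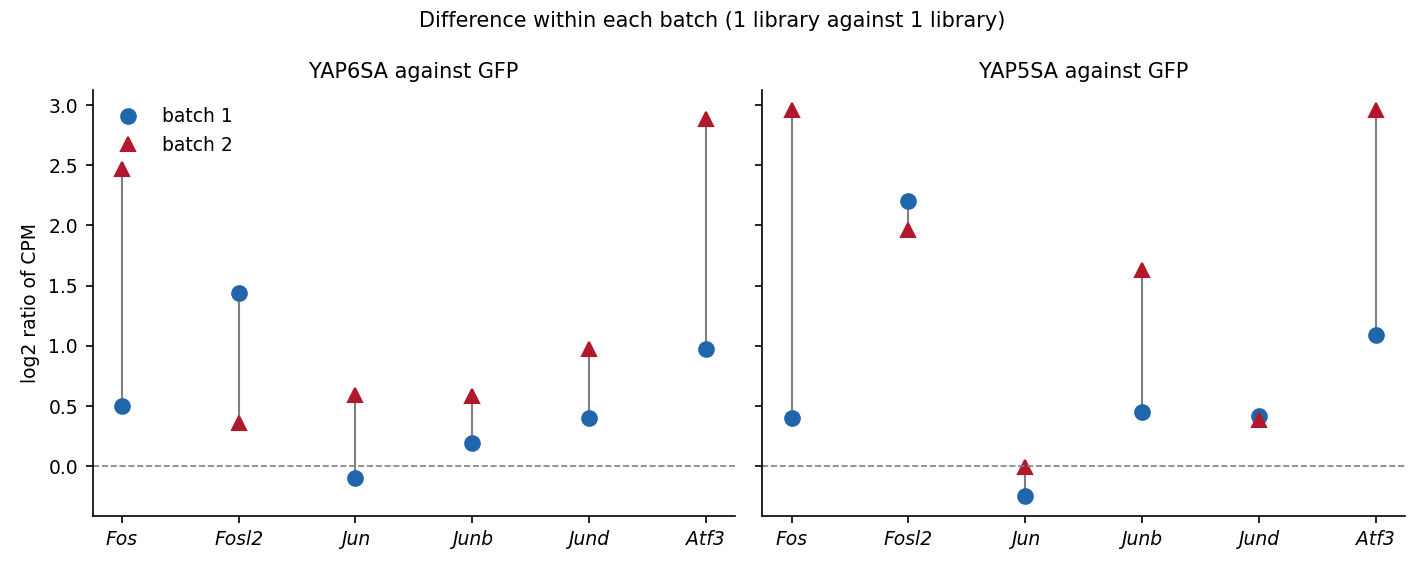
Log2 ratio of CPM within each batch, 1 YAP library against the GFP library of its batch, for YAP6SA (left) and YAP5SA (right). Fos and Atf3 are 0.40 to 1.09 in batch 1 and 2.47 to 2.96 in batch 2, whereas Fosl2 in YAP5SA is 2.20 and 1.96.

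Values that bear on handling were read in each library. The summed level of 30 other immediate early genes was 1285 and 1042 CPM in the GFP libraries, 1790 and 1498 with YAP6SA and 1780 and 2403 with YAP5SA, and that of the 8 members was 229 and 179, 306 and 319, and 355 and 410. Both sums were lowest in the second GFP library and highest in the second YAP5SA library. The 14 heat shock and metallothionein genes summed to 1004 and 1241 CPM in the GFP libraries, 1162 and 1199 with YAP6SA and 1195 and 1448 with YAP5SA, and Hspa1a, the inducible HSP70 chaperone, had 0 to 15 counts. In YAP5SA against GFP, 5 of the 12 genes of this list that were tested rose and 1 fell, beside 12.8% and 9.18% of all genes. Those that rose included the chaperone genes Hspa8 (0.96, edgeR FDR 0.00555) and Hsph1 (0.89, FDR 0.0287). Hspa1b rose too (1.82, FDR 0.0422), but passed the filter through YAP5SA alone. Mt1, a metallothionein, fell by 0.94 on the log2 scale (FDR 0.0284). In YAP6SA 0 of these 12 genes were called, at an unadjusted p under 0.05 there were 3, and the 6 calls in YAP5SA numbered 1 without the second GFP library and 3 without the second YAP5SA library. The share of mitochondrially encoded mRNA ran from 1.16% to 2.81% and was higher in all 4 YAP libraries than in GFP. The part of handling in the changes of the members was not tested.

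Markers of other cells were read for the same reason, since lower levels in bulk nuclei cannot tell fewer nuclei of a type from less RNA per nucleus. Marker calls in YAP5SA against GFP stand beside 12.8% of all genes called higher and 9.18% lower. The 10 CM markers summed to 35225 to 79238 CPM, the 10 fibroblast markers to 926 to 1937, the 10 endothelial markers to 553 to 848, the 8 mural markers to 504 to 672, the 11 macrophage markers to 73.2 to 156, the 7 erythroid markers to 25.1 to 63.8 and the 8 neutrophil markers, with Ly6g at 0 in all libraries, to 6.79 to 17.1. All 10 fibroblast markers were lower in batch 2, with a median log2 difference of -0.71 and 2 called (Fbln2, -0.98, edgeR FDR 0.0348, and Postn, -0.97, FDR 0.0295). These calls were lost without any 1 of the 4 GFP and YAP6SA libraries. More of the 10 were called without either YAP5SA library, where batch calls over all genes rose too. These markers were at 926 CPM in the second GFP library, 1054 in the second YAP6SA library and 979 in the second YAP5SA library. In YAP5SA against GFP, 0 of 10 fibroblast and 0 of 10 endothelial markers were called by edgeR. At an unadjusted edgeR p under 0.05, 2 fibroblast markers were higher and 1 lower, and 0 endothelial markers passed. The shares of all genes at that limit were 19.4% higher and 17% lower. Of 9 macrophage markers 2 rose (Lyz2 1.43, edgeR FDR 0.00611, and C1qa 0.96, FDR 0.0228), and both calls were lost without the second GFP library. CM markers had a median of -0.76, with Nppa, the fetal natriuretic peptide gene, higher (1.18, edgeR FDR 0.00744) and Pln (-1.04, FDR 0.00784) and Ryr2 (-0.81, FDR 0.0455), of calcium handling, lower among 10. These 3 calls were lost without the second GFP library. More CM markers were called without the first YAP5SA library, where calls over all genes rose too. Of 8 mural markers Mcam (1.30, FDR 0.00258) and Myh11 (1.00, FDR 0.0274) were higher and Abcc9 (-0.81, FDR 0.0287) was lower, and 1 was called without the second GFP library or without the second YAP5SA library. In YAP6SA against GFP 0 markers of these 4 cell types were called by edgeR, while 10 of 10 fibroblast markers had a log2 fold change above 0 (median 0.32, 4 with an unadjusted p under 0.05), as had 8 of 8 mural (median 0.16), 8 of 9 macrophage (median 0.24) and 8 of 10 endothelial markers (median 0.17, 1 with an unadjusted p under 0.05 in each of these 3 lists). The part of other cells in the changes of the members, in either YAP group, was not tested.

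The other genes of the pathway give the setting of the members, in the order from signal to target. Counts of these lists stand beside all genes tested, of which 12.8% were called higher and 9.18% lower in YAP5SA against GFP. In YAP6SA against GFP the shares were 0.045% and 0%, and in YAP5SA against YAP6SA 9% and 5.68%. At an unadjusted edgeR p under 0.05, 3.86% of all genes were higher and 2.07% lower in YAP6SA against GFP. In these lists and those above, Egr2, Hspa1b, Hmox1, Spp1, Phgdh and Fcgr1 exceeded the limit of the filter in YAP5SA alone, so their tests are no independent support, and they are part of the counts of their lists. Nr4a3, Plaur and Asns exceeded it in both YAP groups but not in GFP, and the same holds for their tests against GFP. Among 25 tested MAP kinases, their kinases and the factors that act on Fos and Jun genes or proteins, Srf, the factor that binds the serum response element of Fos, rose in both variants, by 1.31 in YAP6SA (SE 0.17, edgeR FDR 0.0424) and 0.92 in YAP5SA (SE 0.17, FDR 0.00544). Its levels were 63.1 and 59.2 CPM with GFP, 158 and 146 with YAP6SA, and 142 and 92.9 with YAP5SA. The other 24 were not called in either comparison, among them Mapk8 (-0.38 in YAP5SA, edgeR FDR 0.0875) and Elk1 (0.19, FDR 0.725). The Srf call in YAP5SA was lost without the first GFP library, where 0 of the 25 were called, and 7 were called without the first YAP5SA library, beside 19.4% of all genes called higher and 17.1% lower in that fit. That in YAP6SA was lost without any 1 of the 4 GFP and YAP6SA libraries.

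Feedback genes, whose products switch off MAP kinases, gave 4 of 13 higher in YAP5SA, beside 12.8% of all genes. In YAP6SA 0 of them were called and 3 had an unadjusted p under 0.05. Those called in YAP5SA were Spry1, an inhibitor of receptor tyrosine kinase signals (1.64, edgeR FDR 0.00628), the phosphatases Dusp8 (1.14, FDR 0.00241) and Dusp6 (1.04, FDR 0.0424), and Spred1, an inhibitor of RAS signals (0.96, FDR 0.0215). Dusp1, the phosphatase usually induced with Fos, was not called against GFP (-0.30, FDR 0.216) and was lower in YAP5SA than in YAP6SA (-0.75, FDR 0.015), where Spry1 (1.49, FDR 0.0122), Dusp6 (1.21, FDR 0.0326) and Spred1 (1.00, FDR 0.0243) were higher. Without the second GFP library 1 of the 13 was called in YAP5SA, and without the second YAP5SA library 2 were.

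Among other bZIP partners, 3 of 10 tested genes rose in YAP5SA, beside 12.8% of all genes. In YAP6SA 0 of them were called and 1 had an unadjusted p under 0.05. Maff, a small MAF protein without an activation domain, went from 2.15 and 2.41 CPM in GFP to 14.8 and 33.8 in YAP5SA (log2 fold change 3.37, SE 0.45, edgeR FDR 0.00115), and was at 3.60 and 2.05 in YAP6SA. Mafk, a further small MAF, gave 1.73 (FDR 6.9e-04). Jdp2, which pairs with JUN and represses AP-1, gave 1.31 (FDR 0.00742) in YAP5SA and 0.16 in YAP6SA. Jdp2 lies 122 kb downstream of Fos, at chr12:85599027-85639878 on the same strand, and Batf, at chr12:85686669-85709087, had 2 to 15 counts and was not tested. All 3 were also higher in YAP5SA than in YAP6SA (Maff 3.01, FDR 0.00246; Jdp2 1.15, FDR 0.0161; Mafk 0.91, FDR 0.0141). Leaving out the second GFP library left 2 of the 3 called against GFP.

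Of the other immediate early genes, 28 of 30 were tested, with 16 higher and 0 lower in YAP5SA, beside 12.8% and 9.18% of all genes. In YAP6SA 2 of the 28 were higher, beside 0.045% of all genes. The median log2 fold change of the 28 was 0.96 in YAP5SA and 0.43 in YAP6SA. The 4 largest called in YAP5SA were Nr4a3 (3.66, edgeR FDR 0.0127), a nuclear receptor; Egr2 (3.04, FDR 0.0231) and Egr3 (2.22, FDR 0.00354), zinc finger factors; and Csrnp1 (2.26, FDR 0.0027), a nuclear factor of little known role. Egr2 had 22 counts and 1 count in the GFP libraries and was tested through its YAP5SA level alone. Nr4a3 was tested through its levels in the YAP groups, not in GFP. The 2 called in YAP6SA were Nr4a1 (1.89, FDR 0.0159) and Sik1, a salt-inducible kinase (1.68, FDR 0.00792), both lower in YAP5SA than in YAP6SA (Nr4a1 -0.67, FDR 0.0492; Sik1 -0.62, FDR 0.0275). Egr1 was not called in YAP5SA (0.90, FDR 0.0984) or in YAP6SA (0.33, FDR 0.929). Of the 28, 10 were higher in YAP5SA than in YAP6SA and 3 lower (Nr4a1, Sik1 and Dusp1). The higher ones were led by Ccn1 (2.51, FDR 0.00228), a matrix protein gene that is also a TEAD target, Gadd45b (2.23, FDR 0.00188), Socs3 (1.81, FDR 0.0299) and Myc (1.72, FDR 0.0122). Without the second GFP library the count in YAP5SA against GFP was 10. The 13 calls between the variants numbered 3 without the second YAP6SA library, beside 2.46% of all genes called higher, and 18 without the first YAP5SA library, beside 16.6%.

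Known AP-1 targets were read next, of which 17 of 25 were tested and Mmp3 and Mmp10, matrix proteases, had 0 counts in all libraries. In YAP5SA 9 rose and 0 fell, with a median of 1.10, beside 12.8% and 9.18% of all genes called higher and lower. The summed level of all 25 did not rise. It was 3417 and 3678 CPM with GFP, 3616 and 3408 with YAP6SA, and lowest with YAP5SA, at 2926 and 2915. In YAP6SA 0 of the targets were called and 1 had an unadjusted p under 0.05 in each direction. Examples in YAP5SA are the chemokine gene Ccl2 (3.19, edgeR FDR 0.00148), the cytokine gene Lif (2.81, FDR 0.00215), the urokinase receptor gene Plaur (2.02, FDR 0.0138) and the hyaluronan receptor gene Cd44 (2.02, FDR 0.00473). Plaur was tested through its levels in the YAP groups, not in GFP. Spp1, the gene of osteopontin, was also called, from 3 counts and 1 count in GFP to 14 and 82 in YAP5SA, and was likewise tested through YAP5SA alone. Between the variants 7 were higher in YAP5SA, among them Lif (3.20, edgeR FDR 0.00189), Ccl2 (2.58, FDR 0.00469) and Cd44 (1.72, FDR 0.0122). Their number fell without the second library of either YAP group, as did calls over all genes. It rose without the first YAP5SA library, again as over all genes. The count of 9 against GFP fell without the second GFP library and without the second YAP5SA library. It rose without the first YAP5SA library, and calls over all genes moved the same way in each of these fits.

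In YAP6SA 0 of 14 genes that stand around ATF3 in the integrated stress response were called, and 1 had an unadjusted p under 0.05. In YAP5SA 1 of the 14 rose and 2 fell, beside 12.8% and 9.18% of all genes. Gdf15, a stress cytokine gene, rose with 1.86 (edgeR FDR 0.0098). Ddit3, which encodes the stress factor CHOP, fell by 1.35 on the log2 scale (FDR 0.00137), and Vldlr, a lipoprotein receptor gene, fell by 0.89 (FDR 0.0192). Atf4, the usual activator of Atf3 in that response, gave 0.28 (FDR 0.222). The number called in this list fell without the second GFP library and rose without the first YAP5SA library, as did calls over all genes. Ddit3 was also lower in YAP5SA than in YAP6SA (-1.16, FDR 0.00366). TEAD targets gave 15 of 19 higher in YAP5SA, beside 12.8% of all genes. In YAP6SA 0 of them were called and 1 had an unadjusted p under 0.05. The largest in YAP5SA were Ccn2 (3.33, edgeR FDR 1.0e-03), Amotl2 (2.83, FDR 1.9e-04), Nuak2 (2.44, FDR 9.1e-04) and Ankrd1 (2.35, FDR 2.0e-04), which was at 0.87 in YAP6SA (FDR 0.328).

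**Figure D5:**
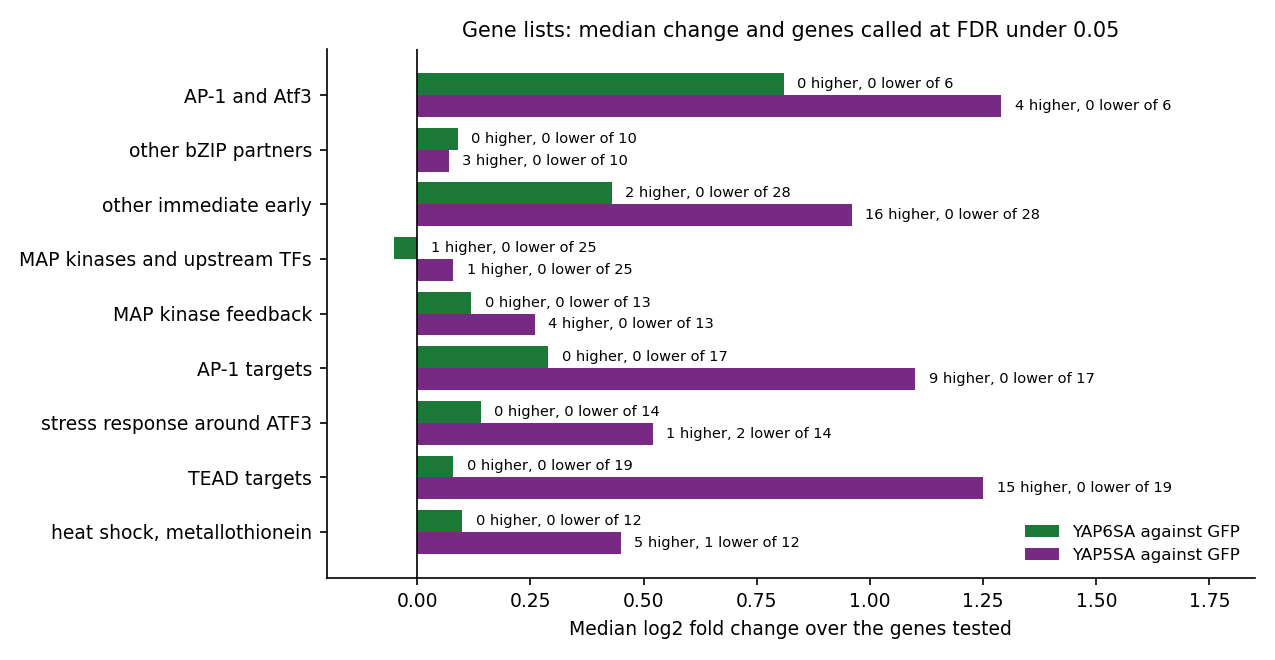
Median log2 fold change over the tested genes of 9 lists, YAP6SA against GFP in green and YAP5SA against GFP in purple, with the numbers called higher and lower at the bar ends. The AP-1 and Atf3 genes have medians of 0.81 and 1.29, the AP-1 targets 0.29 and 1.10 and the TEAD targets 0.08 and 1.25, and the MAP kinases stay near 0.

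Both comparisons with GFP share the same 2 control libraries, so their values are not independent of each other. Genes most like a member across the 6 libraries were found by the Pearson correlation of log2 CPM among 13045 genes, as a description over 6 points that share library and depth. The closest to Fos were Gm49747 (r = 0.994), Otud1, a deubiquitinase gene (0.986), and Rnpc3 (0.983), and Otud1 held 53.4 and 24.9 CPM with GFP, 65.3 and 85.4 with YAP6SA, and 73.1 and 89.6 with YAP5SA. Atf3 was matched by Ap1s2 (0.997), an adaptor subunit gene of vesicle transport, Ly6c1 (0.984) and Ap3s2 (0.984). For Fosl2 they were Gm26722 (0.996), Snx12 (0.995) and Fopnl (0.994), and for Junb Tm9sf3 (0.997), Pwp2 (0.996) and Lsm12 (0.996). Jun was closest to Dph6 (0.980), Ifi207 (0.978) and Dnpep (0.966), and Jund to Col26a1 (0.983), Tmem255b (0.973) and Gm9917 (0.970). The members were left out of this ranking, so their likeness to each other was not read.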

How the data were processed

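The authors mapped reads with STAR to mm10 with Ensembl release 94 and deposited raw counts per gene, with no normalization or filter. Builds and tools are as in the submitters' processing notes and the design text, and whether strand was used is not given there. Symbols and coordinates came from GENCODE M21 (GRCm38), promoter sequences from RefSeq (GRCm38.p6). The quasi-likelihood test of edgeR 4.0.16 (R 4.3.3) was run on all 6 libraries after TMM scaling, in a model of batch and group, over 13323 genes with a median log2 CPM above 1 in at least 1 group. DESeq2 1.42.0 was an alternative. The code was tested on simulated data. Fosb and Fosl1 were fitted without the filter. Replicate numbers are batch numbers per the labels. Deviations of libraries of a batch correlated at 0.394 between GFP and YAP6SA. They correlated only weakly between GFP and YAP5SA (0.107) and between YAP6SA and YAP5SA (0.180). The 2 libraries of each group differed beyond counting error (chi-square over its degrees of freedom 25.3 to 39.6). The libraries were taken to come from separate hearts, and p-values rest on 2 libraries per group. A floor of 3 counts covers counting error only, 0.153 to 0.206 CPM here. The members and the gene lists were chosen with earlier results of these data known. Named are the 8 members, the 3 genes most like each tested member, reference genes (Srf, Egr1, Nr4a1, Hspa1a) and, per list and comparison, called genes up to 4 by size, of which 1 is not reported here, and list members at 0 in all libraries. Genes named outside this rule (Mapk8, Elk1, Atf4, Batf, Hmox1, Phgdh, Fcgr1, Asns) were chosen after their values were seen.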

Additional observations from a re-analysis of the deposited data

Results flagged for a closer look

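Fosl2 is the member whose change against GFP differed between the variants by a direct test. The log2 difference of YAP5SA against YAP6SA was 1.14 (SE 0.23, edgeR FDR 0.0113), with libraries at 121 and 109 CPM in YAP5SA and 71.7 and 36.0 in YAP6SA. It was higher in both batches, and the call was lost without the second YAP6SA library (0.70, FDR 0.158).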

How the results depend on the processing

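All genes called at an FDR under 0.05 numbered 6 for YAP6SA against GFP, 2931 for YAP5SA against GFP, 1956 for YAP5SA against YAP6SA and 27 for the batches. For YAP6SA against GFP there were 145 with no filter, 82 with the likelihood ratio test, 55 with DESeq2, 0 without the replicate block and 276 with the 4 libraries compared. For the batches there were 485 with no filter, 349 with the likelihood ratio test and 181 with DESeq2. Without the replicate block, YAP5SA against YAP6SA had 1152 and Fosb there was -0.02, the one member reversed by a setting that keeps all libraries. The cause of these shifts was not tested. Leaving out single libraries gave 6 to 213 for YAP6SA against GFP, 738 (without the second GFP library) to 4863 for YAP5SA against GFP, 396 to 4160 for YAP5SA against YAP6SA and 5 to 596 for the batches; the remaining library of a group was then assumed to vary like the others, with 1 residual degree of freedom. Members that changed sign in such fits, with their ranges, were, for YAP6SA against GFP, Fosb (-0.56 to 2.59), Fosl1 (-1.11 to 1.45) and Jun (-0.04 to 0.53). For YAP5SA against GFP they were Fosl1 (-0.08 to 2.25) and Jun (-0.36 to 0.12). For YAP5SA against YAP6SA they were Atf3 (-0.30 to 0.60), Fos (-0.58 to 0.89), Fosb (-1.27 to 1.86), Fosl1 (-0.52 to 2.11) and Jund (-0.58 to 0.01). For the batches they were Atf3 (-0.76 to 0.10), Fos (-0.69 to 0.49), Fosb (-1.07 to 0.85), Jun (-0.05 to 0.29) and Junb (-0.17 to 0.42). None of these was called in the fit as reported. With 2 libraries per group, outlying libraries could not be tested.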
